A study of Mus musculus with 15 samples.

Results

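The 10 genes described here encode the junctions and transporters by which brain endothelium forms the blood-brain barrier: the junction and adhesion genes Cldn5, Ocln, Tjp1, Cdh5 and Pecam1, the carriers Slc2a1, Slco1a4 and Mfsd2a, and the efflux pumps Abcb1a and Abcg2. They were taken by symbol from a table of 30386 genes, and each symbol matched 1 row. They were chosen by role and by measured counts: fold changes between vitamin-treated and saline-treated heterozygotes were already known for some of them. That comparison is therefore given for them as a description, without a p-value.

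Expression was measured in mouse brain by QuantSeq, which counts reads at the 3′ ends of polyadenylated RNA, in 15 libraries. Het_B12 mice (5 libraries) were Tbx1+/- and received vitamin B12 at 20 mg/kg. Het_PBS mice (5 libraries) were Tbx1+/- and received phosphate-buffered saline, and WT_PBS mice (5 libraries) were wild type and received saline. All received intraperitoneal injections 2 times a week for 4 weeks from 4 weeks of age; sex is not stated in the sources used here, nor is the part of Tbx1 that the mutant allele lacks. Tbx1 encodes a T-box transcription factor and lies in the mouse counterpart of the region deleted in human 22q11.2 deletion syndrome. The labels give the tissue as hemisphere and the design text as whole brain, so endothelium is a small part of each sample, and more endothelial cells cannot be told apart from more RNA per endothelial cell. The labels give each library a code whose number differs between all libraries except Het_B12 1 and Het_PBS 5, which share one. No label says that these codes stand for mice, so p-values rest on the spread between libraries, whatever its source.

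Endothelial cells of brain capillaries are joined by tight junctions, in which claudins and occludin close the gap between neighbouring cells and scaffold proteins tie them to the cytoskeleton. Because this seal stops most solutes, nutrients enter through dedicated carriers, while pumps of the ATP-binding cassette family return many drugs and toxins to the blood. Wnt signals, pericytes and astrocyte endfeet are known to maintain this state.

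Total counts ran from 2098847 to 2746122 in Het_B12, from 1683258 to 2645833 in Het_PBS and from 1707033 to 2593316 in WT_PBS, so that 3 reads, used as a floor, equalled 1.02 to 1.79 CPM (counts scaled to a library of 1000000 reads, with library sizes adjusted by the trimmed mean of M-values, TMM). A 3′ count does not grow with transcript length, so CPM stands for transcript number in principle. The defining brain markers were all present, for example Snap25 at 592.8 to 928.0 CPM and Aqp4 at 81.8 to 185.9 CPM over the 15 libraries. Tbx1 had 1 read in Het_B12, 3 in Het_PBS and 3 in WT_PBS, too few to check the genotypes. Calls that ended without the pair of libraries that share a code number are named as such, beside their genes or together for the markers of other cell types.

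The barrier genes were low in these brains. Over the 15 libraries Tjp1 averaged 26.3 CPM, Slc2a1 23.7, Slco1a4 21.4, Abcg2 16.5, Abcb1a 15.6, Mfsd2a 10.8, Cldn5 7.73, Pecam1 6.16, Cdh5 2.36 and Ocln 2.17 CPM. Tjp1 stood at percentile 51.2 of the 11718 genes with enough reads to be tested, and Pecam1 at percentile 12.4. These means pool groups that differ for some of the genes, and neighbours in the order overlapped across the 15 libraries. Cdh5 and Ocln did not pass the filter on low counts, so 8 of the 10 genes were tested. Pecam1 passed that filter only with its Het_B12 libraries counted, the group in which it was high. No annotated gene that overlaps any of the 10 had a read in this table.

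**Figure D1:**
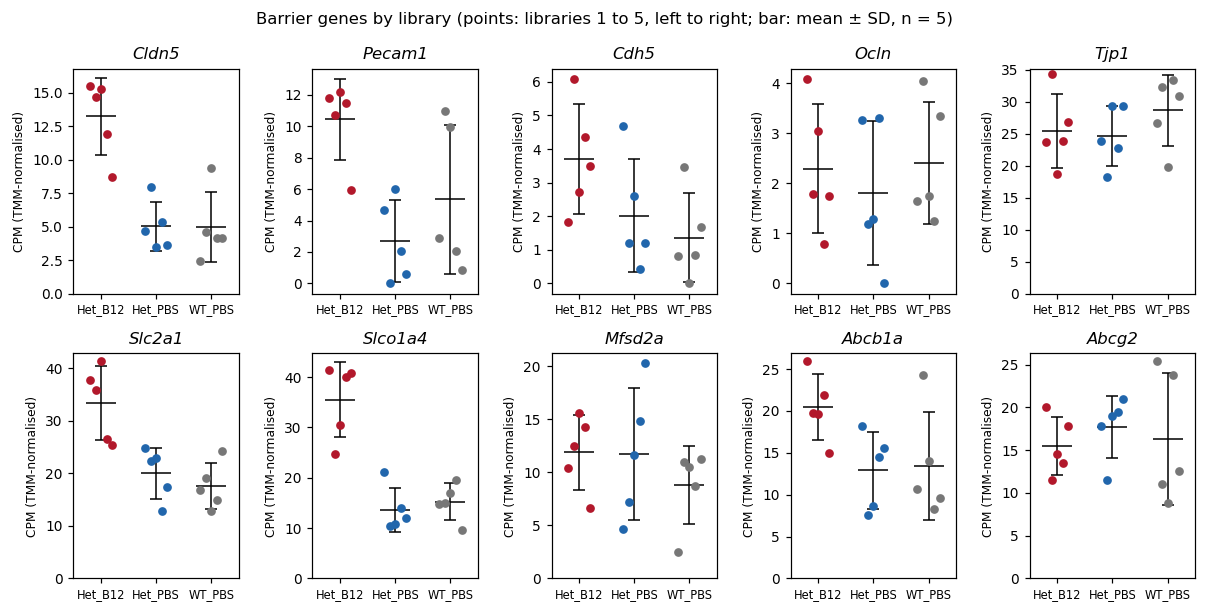
CPM (TMM-normalised, linear axis) of each of the 10 barrier genes in Het_B12, Het_PBS and WT_PBS, with 1 point per library (1 to 5 from left to right) and the mean ± SD. All 5 Het_B12 points of Cldn5, Slc2a1 and Slco1a4 lie above every Het_PBS point, whereas for Ocln, Tjp1, Mfsd2a and Abcg2 the 3 groups overlap.

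Cldn5, Slco1a4 and Slc2a1 were the genes whose Het_B12 libraries all lay above every Het_PBS library. Their promoters from RefSeq (GRCm38.p6) are shown because these genes were high in the same group. Within Het_B12 they did not move together: Cldn5 and Slc2a1 were lowest in Het_B12 5, Slco1a4 in Het_B12 2. Each covers 250 bases before the annotated start and 50 after it, 5′ to 3′ on the gene's own strand. Capitals mark matches, on either strand, to 5 motifs: GGGCGG (the GC box bound by Sp1), ACGTG (the core of the hypoxia response element), CTTTGA (a core of TCF/LEF sites, the end point of Wnt signalling), TGTTTAC (a forkhead site) and TATAAA (the TATA box).
Cldn5 (chr16:18776597-18776896, plus strand): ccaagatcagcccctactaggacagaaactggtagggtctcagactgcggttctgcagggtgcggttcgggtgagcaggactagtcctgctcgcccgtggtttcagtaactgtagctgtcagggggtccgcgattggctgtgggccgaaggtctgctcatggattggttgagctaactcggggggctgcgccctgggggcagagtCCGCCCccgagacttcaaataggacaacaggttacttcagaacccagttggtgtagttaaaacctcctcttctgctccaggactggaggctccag
Slco1a4 (chr6:141856171-141856470, minus strand): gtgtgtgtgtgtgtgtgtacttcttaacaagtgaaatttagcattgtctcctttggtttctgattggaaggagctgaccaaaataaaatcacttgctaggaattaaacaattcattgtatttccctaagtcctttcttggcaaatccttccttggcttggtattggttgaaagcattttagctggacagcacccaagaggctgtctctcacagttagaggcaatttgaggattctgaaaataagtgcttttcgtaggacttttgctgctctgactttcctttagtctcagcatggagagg
Slc2a1 (chr4:119108495-119108794, plus strand): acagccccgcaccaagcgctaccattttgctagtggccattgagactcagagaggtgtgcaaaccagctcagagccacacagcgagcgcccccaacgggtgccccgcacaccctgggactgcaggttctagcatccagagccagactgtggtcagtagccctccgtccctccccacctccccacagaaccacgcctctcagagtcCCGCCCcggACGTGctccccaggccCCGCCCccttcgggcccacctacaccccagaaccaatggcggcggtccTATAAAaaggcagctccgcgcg
The Cldn5 window held 1 match, a GC box, the Slco1a4 window 0 and the Slc2a1 window 4, namely GC boxes, a hypoxia core and a TATA box. The windows also differed in composition, with 58.3% G or C for Cldn5, 40.7% for Slco1a4 and 65.3% for Slc2a1. Among all 32851 promoter windows of the table, 35.7% held the GC box, 19.6% the hypoxia core, 16% the TCF/LEF core, 3.65% the forkhead site and 13.6% the TATA box. RefSeq windows were at hand for 8 of the 10 genes (11 windows), of which 7 windows held the GC box, 3 the hypoxia core, 2 the TCF/LEF core, 1 the forkhead site and 3 the TATA box. The forkhead match and 1 of the windows with a TCF/LEF core belong to Abcb1a, whose RefSeq start lies far upstream of the gene start in the annotation used here. A match is a string of letters and not a known site.

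Junction and adhesion genes came first. Cldn5 encodes claudin-5, the main claudin of brain endothelium. The gene has a single exon (ENSMUSG00000041378, GRCm38 chromosome 16, 18776847 to 18778262, plus strand) and starts 186.2 kb beyond the end of Tbx1. It had 15.5, 14.7, 15.3, 11.9 and 8.72 CPM in Het_B12 libraries 1 to 5, 4.68, 7.96, 3.45, 5.37 and 3.59 CPM in Het_PBS libraries 1 to 5 and 2.46, 4.63, 9.35, 4.17 and 4.18 CPM in WT_PBS libraries 1 to 5. Every Het_B12 library exceeded every Het_PBS library, and 4 of 5 exceeded every WT_PBS library, the highest of which was WT_PBS 3. Cldn5 averaged 13.2 ± 2.89 CPM in Het_B12 and 5.01 ± 1.83 CPM in Het_PBS (SD, n = 5 each), a fitted log2 difference of 1.37 ± 0.35 (SE), or 2.58-fold. Without the pair of libraries that share a code number it was 1.22, and without Het_PBS 1 and 3 together 1.18; in both fits Cldn5 was no longer past the threshold of an adjusted p under 0.05.

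Pecam1 encodes the adhesion molecule CD31, which sits at contacts between endothelial cells and also on platelets and some leukocytes (ENSMUSG00000020717, chromosome 11, 106654217 to 106750628, minus strand). It had 11.8, 10.8, 12.2, 11.5 and 5.93 CPM in Het_B12 libraries 1 to 5, 4.68, 0, 6.04, 2.06 and 0.598 CPM in Het_PBS libraries 1 to 5 and 2.87, 10.99, 9.93, 2.08 and 0.836 CPM in WT_PBS libraries 1 to 5. The PBS libraries were uneven: WT_PBS 2 and 3 stood near the Het_B12 level, the other WT_PBS libraries did not, and Het_PBS 2 had 0 reads. In Het_B12, 4 of 5 libraries lay above every Het_PBS library and 3 above every WT_PBS library. The fitted log2 difference of Het_B12 over Het_PBS, 1.93 ± 0.55 (SE), was the largest among the 8 genes tested and had the largest error. It was 3.44 without Het_PBS 1 and 3, which held 10 and 14 of the 30 Het_PBS reads.

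Cdh5 encodes VE-cadherin, the adhesive protein of endothelial adherens junctions (ENSMUSG00000031871, chromosome 8, 104101625 to 104144511, plus strand). Its raw reads were 4, 17, 8, 11 and 10 in Het_B12 libraries 1 to 5, 10, 3, 6, 1 and 2 in Het_PBS and 2, 6, 0, 2 and 4 in WT_PBS. No Het_B12 library was at or under the floor of 3 reads, against 3 of 5 in Het_PBS and 3 of 5 in WT_PBS, and the ranges overlapped. With the TMM adjustment Cdh5 averaged 3.70 CPM in Het_B12, 2.01 CPM in Het_PBS and 1.36 CPM in WT_PBS. Relative to total counts alone, without TMM, the 50 reads of Het_B12 were 2.07 times the 22 of Het_PBS (95% interval of counting error, from the exact binomial, 1.23 to 3.59) and 3.16 times the 14 of WT_PBS (1.72 to 6.19). These intervals leave out the spread between libraries. In a fit without the filter the log2 difference was 0.87 ± 0.65 (SE) over Het_PBS and 1.45 ± 0.69 over WT_PBS. Neither passed the threshold.

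Ocln encodes occludin, a membrane protein of tight junctions in many barriers (ENSMUSG00000021638, chromosome 13, 100496507 to 100552718, minus strand). Its reads were 9, 5, 9, 2 and 5 in Het_B12, 7, 3, 3, 8 and 0 in Het_PBS and 4, 7, 3, 3 and 8 in WT_PBS. The groups overlapped throughout, and a difference was not detectable at this depth. Relative to total counts alone, without TMM, the 30 reads of Het_B12 were 1.30 times the 21 of Het_PBS, with a counting interval from 0.721 to 2.39.

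Tjp1 encodes ZO-1, a scaffold under tight junctions that neurons, astrocytes and epithelia also express (ENSMUSG00000030516, chromosome 7, 65296165 to 65527781, minus strand). It had 23.6, 34.4, 18.7, 23.8 and 26.9 CPM in Het_B12 libraries 1 to 5, 23.9, 18.3, 29.3, 22.7 and 29.3 CPM in Het_PBS libraries 1 to 5 and 26.7, 32.4, 19.9, 33.4 and 30.9 CPM in WT_PBS libraries 1 to 5. The 3 groups overlapped, the 5 libraries of Het_B12 averaging 25.5 ± 5.78 CPM (SD), those of Het_PBS 24.7 ± 4.69 CPM and those of WT_PBS 28.6 ± 5.53 CPM. The fitted log2 difference of Het_B12 over Het_PBS was 0.05 ± 0.20 (SE), with a 95% interval from -0.35 to 0.46.

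Among the carriers, Slc2a1 encodes GLUT1, which brings glucose across the barrier and is also present in astrocytes (ENSMUSG00000028645, chromosome 4, 119108711 to 119137983, plus strand). It had 37.7, 35.8, 41.4, 26.6 and 25.5 CPM in Het_B12 libraries 1 to 5, 24.8, 22.3, 22.9, 12.8 and 17.3 CPM in Het_PBS libraries 1 to 5 and 16.8, 19.1, 12.9, 15.01 and 24.2 CPM in WT_PBS libraries 1 to 5. Every Het_B12 library lay above every Het_PBS and every WT_PBS library, but Het_B12 5 only just, at 25.5 CPM against 24.8 CPM in Het_PBS 1. Slc2a1 averaged 33.4 ± 7.04 CPM in Het_B12 and 20.0 ± 4.88 CPM in Het_PBS (SD, n = 5 each), a log2 difference of 0.74 ± 0.21 (SE), or 1.66-fold.

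Slco1a4 encodes an organic anion transporter, Oatp1a4, which lies on both faces of mouse brain endothelium and carries bile acids, steroid conjugates and drugs (ENSMUSG00000030237, chromosome 6, 141805440 to 141856199, minus strand). It had 41.4, 24.7, 30.6, 40.1 and 40.8 CPM in Het_B12 libraries 1 to 5, 21.1, 10.3, 10.8, 14.04 and 11.96 CPM in Het_PBS libraries 1 to 5 and 14.8, 15.04, 16.9, 19.6 and 9.61 CPM in WT_PBS libraries 1 to 5. Here too all Het_B12 libraries lay above all others, and the gap was wider, the lowest Het_B12 library (Het_B12 2) being at 24.7 CPM and the highest PBS library (Het_PBS 1) at 21.1 CPM. Slco1a4 averaged 35.5 ± 7.49 CPM in Het_B12 and 13.6 ± 4.39 CPM in Het_PBS (SD, n = 5 each), a log2 difference of 1.38 ± 0.23 (SE), or 2.60-fold. Over the 27 alternative fits its log2 difference lay between 1.28 and 1.58.

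Mfsd2a encodes the carrier of docosahexaenoic acid as lysophosphatidylcholine, and in mouse it also holds down vesicle transport through the endothelium (ENSMUSG00000028655, chromosome 4, 122946850 to 122961188, minus strand). It had 10.5, 12.5, 15.6, 14.3 and 6.63 CPM in Het_B12 libraries 1 to 5, 4.68, 7.17, 11.7, 14.9 and 20.3 CPM in Het_PBS libraries 1 to 5 and 2.46, 10.99, 10.5, 8.76 and 11.3 CPM in WT_PBS libraries 1 to 5. Het_PBS spread most, from 4.68 CPM in Het_PBS 1 to 20.3 CPM in Het_PBS 5, and covered the whole Het_B12 range. The log2 difference of Het_B12 over Het_PBS was 0.04 ± 0.34 (SE), with a 95% interval from -0.65 to 0.74, and its sign changed in 5 alternative fits.

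Of the efflux pumps, Abcb1a encodes P-glycoprotein, which faces the blood in mouse brain capillaries (ENSMUSG00000040584, chromosome 5, 8660077 to 8748575, plus strand). It has a near relative, Abcb1b, with which reads could be lost or split. It had 25.9, 19.7, 19.7, 21.9 and 15 CPM in Het_B12 libraries 1 to 5, 18.2, 7.57, 8.63, 14.4 and 15.6 CPM in Het_PBS libraries 1 to 5 and 10.7, 24.3, 14.02, 8.34 and 9.61 CPM in WT_PBS libraries 1 to 5. In Het_B12, 4 of 5 libraries lay above every Het_PBS library, but WT_PBS 2 stood within the Het_B12 range. The log2 difference of Het_B12 over Het_PBS was 0.67 ± 0.28 (SE) and did not pass the threshold.

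Abcg2 encodes the breast cancer resistance protein, a pump of the same face of the endothelium (ENSMUSG00000029802, chromosome 6, 58584523 to 58695676, plus strand). It had 20, 11.5, 14.6, 13.5 and 17.8 CPM in Het_B12 libraries 1 to 5, 17.8, 11.6, 18.98, 19.4 and 20.9 CPM in Het_PBS libraries 1 to 5 and 25.5, 10.99, 8.77, 23.8 and 12.5 CPM in WT_PBS libraries 1 to 5. WT_PBS held both the highest and the lowest values, and the groups overlapped. The log2 difference of Het_B12 over Het_PBS was -0.19 ± 0.26 (SE), with a 95% interval from -0.73 to 0.34.

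Over Het_PBS, then, 4 of the 8 genes tested (Cldn5, Pecam1, Slc2a1 and Slco1a4) stood past the threshold in Het_B12, all of them higher. Of all genes tested 7.26% did, 3.47% higher and 3.79% lower. Pecam1 was among the 8 only because its Het_B12 libraries carried it past the filter on low counts. For 3 of the 8 the ranges did not overlap, against 3.75% of all genes in that direction and 4.07% in the other. Since this comparison lay behind the choice of the genes, nothing is read from these shares. The median log2 difference of the 8 was 0.70, and that of all genes tested 0.01. Some of the calls depend on the test or on few libraries. Pecam1 was not called by DESeq2 (1.95) or without the pair that shares a code number (1.67), and Slc2a1 was not called without that pair (0.65). Pecam1 was also no longer called without Het_PBS 2, Het_PBS 4, Het_PBS 5, Het_B12 1, Het_B12 3 or Het_B12 4 (log2 differences 1.58 to 1.89), and Slc2a1 without Het_PBS 4, Het_PBS 5, Het_B12 1, Het_B12 2 or Het_B12 3 (0.60 to 0.71).

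**Figure D2:**
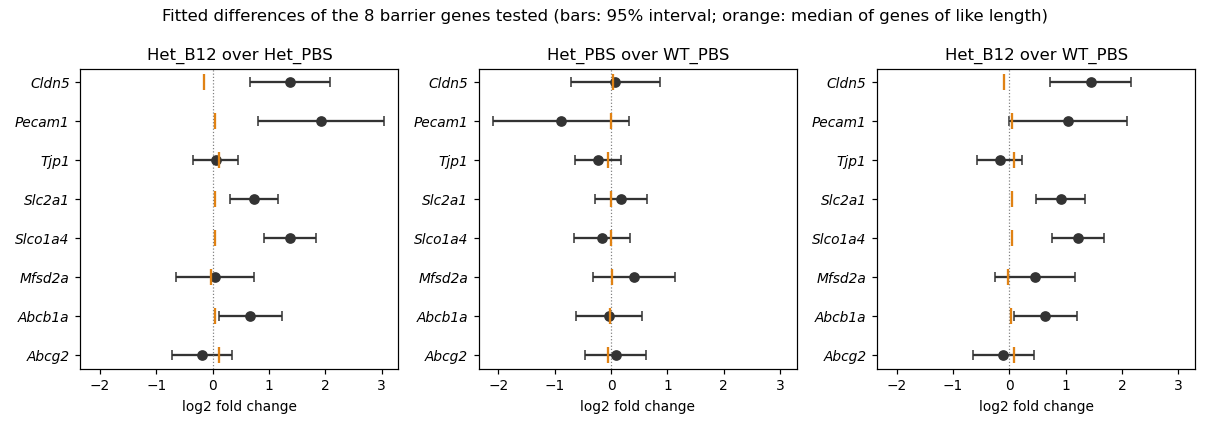
Fitted log2 fold change (horizontal axis) of the 8 barrier genes tested, for Het_B12 over Het_PBS, Het_PBS over WT_PBS and Het_B12 over WT_PBS; points are estimates, bars 95% intervals, and orange ticks the median of tested genes in the same of 5 classes of transcript length. In the middle panel every interval includes 0. In both outer panels those of Cldn5, Slc2a1, Slco1a4 and Abcb1a lie above 0, and in the left panel that of Pecam1 does too. The intervals are not adjusted for the number of genes tested, and Abcb1a did not pass the threshold. The outer panels are descriptions only, since the Het_B12 libraries lay behind the choice of the genes.

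Loss of 1 Tbx1 copy was examined next, by Het_PBS against WT_PBS under saline. None of the 8 barrier genes tested passed the threshold, and 0% of all genes passed edgeR's quasi-likelihood test, which gave 879 genes (7.5%) an unadjusted p under 0.05, none of them a barrier gene; DESeq2 and limma-voom also called 0 genes. Cldn5, the nearest of them to Tbx1, averaged 5.01 CPM (SD 1.83, n = 5) in Het_PBS and 4.96 CPM (SD 2.59, n = 5) in WT_PBS, with a log2 difference of 0.08 ± 0.39 (SE, edgeR adjusted p = 0.985) and a 95% interval from -0.71 to 0.86. Changes of up to about that size are therefore within the error for this low gene. Slco1a4 (-0.15 ± 0.25, adjusted p = 0.932), Slc2a1 (0.18 ± 0.23, 0.900) and Abcb1a (-0.04 ± 0.29, 0.986) also had intervals that included 0. Pecam1 had the largest difference, -0.89 ± 0.60 (SE, edgeR adjusted p = 0.775), and was at -2.41 without Het_PBS 1 and 3. Mfsd2a stood at 0.41 ± 0.36 (0.854), Tjp1 at -0.23 ± 0.20 (0.856) and Abcg2 at 0.09 ± 0.27 (0.971). The Het_PBS libraries also enter the comparison with Het_B12, so the differences are not independent of each other.

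Het_B12 brains were also set against wild types, in a comparison that shares the Het_B12 libraries with the first. Genotype and treatment both differ in it, and no vitamin-treated wild types were measured, so the 2 cannot be told apart. Of the 8 genes, 3 (Cldn5, Slc2a1 and Slco1a4) stood past the threshold, all higher, where 7.33% of all genes tested did, 3.22% higher and 4.11% lower. Because the Het_B12 libraries lay behind the choice of the genes, nothing is read from this share either. Slco1a4 averaged 35.5 ± 7.49 CPM in Het_B12 and 15.2 ± 3.67 CPM in WT_PBS (log2 difference 1.22 ± 0.23 SE), and Slc2a1 averaged 33.4 ± 7.04 CPM in Het_B12 and 17.6 ± 4.36 CPM in WT_PBS (0.91 ± 0.21). The ranges of both did not overlap, as for 2.44% of all genes in that direction and 2.94% in the other. Cldn5 stood at 1.44 ± 0.36. Pecam1 stood at 1.04 ± 0.52, with a 95% interval from -0.01 to 2.09, and Abcb1a at 0.63 ± 0.28; neither passed, but Abcb1a did without WT_PBS 2 (0.95) and Pecam1 did by limma-voom (1.58). Mfsd2a (0.45 ± 0.35), Abcg2 (-0.11 ± 0.27) and Tjp1 (-0.17 ± 0.20) did not pass.

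Other genes of the barrier were counted from lists written by known role, but with earlier results of these data in view, so their counts and p-values are descriptions of these genes. The share called in each list stands against 7.26% of all genes tested over Het_PBS. Of 29 further junction and adhesion genes, 19 were tested; over Het_PBS, 0 rose and 1 fell in Het_B12 (5.26% called), with a median log2 difference of 0.18 against 0.01 over all genes. The gene that fell was Cd99l2, a leukocyte passage molecule that neurons also express, at 71.4 ± 4.63 CPM in Het_B12 and 96.5 ± 9.72 CPM in Het_PBS (-0.43 ± 0.13 SE, edgeR adjusted p = 0.0328). It lost that call (log2 -0.45 to -0.40) in the fits without Het_PBS 1, 3, 4 or 5 or Het_B12 1, 3, 4 or 5, without the pair that shares a code number (-0.42) and without Het_PBS 1 and 3 together (-0.43). The other abundant members did not pass: Ctnnb1, which encodes β-catenin, stood at -0.28 ± 0.11, the afadin gene Afdn at 0.38 ± 0.13 (past the threshold without WT_PBS 3, at 0.37, and by DESeq2, at 0.37) and the angulin gene Ildr2 at 0.30 ± 0.12.

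Of 34 solute carrier genes and partners 26 were tested, and 2 rose and 0 fell in Het_B12 over Het_PBS (7.69% called, close to the share of all genes; median 0.06). Slc6a6, the taurine transporter of the barrier and of neural cells, was at 106.3 ± 10.1 CPM in Het_B12 and 68.6 ± 13.9 CPM in Het_PBS (log2 0.63 ± 0.14 SE, edgeR adjusted p = 0.00257). Slc9a3r2, which despite its symbol encodes a scaffold protein and no carrier, was at 42.8 ± 4.82 CPM in Het_B12 and 25.4 ± 3.31 CPM in Het_PBS (0.75 ± 0.17, adjusted p = 0.00371). No single library undid either call. The abundant amino acid carrier genes Slc3a2 (-0.08 ± 0.14) and Slc38a2 (0.03 ± 0.14) and the zinc carrier gene Slc39a10 (-0.25 ± 0.14) did not pass. Among 8 tested of 12 further ATP-binding cassette pump genes, 1 rose and 0 fell (12.5% called, median 0.30): Abca2, a lipid transporter most abundant in oligodendrocytes, at 209.8 ± 26.3 CPM in Het_B12 and 127.1 ± 36.8 CPM in Het_PBS (0.71 ± 0.15, adjusted p = 0.00217). Abcc5 (0.51 ± 0.18), Abca1 (0.02 ± 0.27) and Abcg4 (0.26 ± 0.26) did not pass; Abcc5 did without WT_PBS 3 (0.50) or Het_PBS 5 (0.61) and by limma-voom (0.55).

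Of 23 genes of receptor-mediated transport and vesicle traffic, 17 were tested, and 1 rose and 0 fell (5.88% called, median 0.06). Scarb1, a receptor for high-density lipoprotein, was at 17.7 ± 6.65 CPM in Het_B12 and 8.60 ± 2.88 CPM in Het_PBS (1.03 ± 0.31 SE, edgeR adjusted p = 0.0335), and lost its call without Het_PBS 1, 3 or 4 or Het_B12 1 or 4 (log2 0.83 to 1.05), by limma-voom (1.01), without the pair that shares a code number (0.92) and without Het_PBS 1 and 3 (1.07). The basigin gene Bsg (-0.02 ± 0.11), Lrp1 (0.10 ± 0.13), Igf1r (0.38 ± 0.13) and Pcbp1 (0.06 ± 0.13) did not pass; Igf1r did without Het_PBS 5 (0.44) or Het_B12 5 (0.46). Of 36 genes of Wnt signalling and barrier transcription, 24 were tested and 1 rose (4.17% called), Ppard, a lipid-sensing nuclear receptor gene, at 8.72 ± 2.09 CPM in Het_B12 and 3.11 ± 1.75 CPM in Het_PBS (1.501 ± 0.42, adjusted p = 0.0219). That call was lost without Het_PBS 2 or 3 or Het_B12 1 or 3 (1.28 to 1.42), without the pair that shares a code number (1.57) and without Het_PBS 1 and 3 (1.33). The Wnt effector gene Tcf7l2 (-0.12 ± 0.16), Nr2f2 (0.09 ± 0.13), Foxo1 (0.03 ± 0.17) and Epas1 (0.20 ± 0.15) did not pass, and the list's median was -0.03.

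Between Het_PBS and WT_PBS, 0 genes of these 5 lists passed edgeR's test, and their median log2 differences lay between -0.12 (the pumps) and 0.09 (the junctions), against -0.01 over all genes. Over WT_PBS in Het_B12, 5.26% of 19 tested junction genes were called, 15.4% of 26 carrier genes and 37.5% of 8 pump genes. For receptor-mediated transport the share was 11.8% of 17, against 7.33% of all genes tested. Between Het_B12 and WT_PBS, Jam3, Slc6a6, Slc9a3r2, Abcc5, Abcg1, Abca2 and Igf1r were higher in Het_B12, and Slc16a1, Slc39a10 and Cav2, which encodes caveolin-2, were lower; 0 genes of the Wnt list passed. Of these 10 calls, those of Abcc5 (0.84 ± 0.19) and Igf1r (0.55 ± 0.13) were kept in all 15 fits without 1 library. Slc6a6 (0.51 ± 0.14) lost its call without WT_PBS 5 or Het_B12 2, and Jam3 (0.82 ± 0.23), a tight junction adhesion gene, without WT_PBS 4, WT_PBS 5 or Het_B12 2 (0.68 to 0.74). Abcg1 (0.92 ± 0.26) lost it without WT_PBS 1 or 2 or Het_B12 1, 2 or 3, Cav2 (-0.77 ± 0.22) without WT_PBS 1, 2 or 5 or Het_B12 1 or 2, and the monocarboxylate carrier gene Slc16a1 (-0.64 ± 0.19) without WT_PBS 2 or 5 or Het_B12 1, 4 or 5. Abca2 (0.53 ± 0.15) lost it without WT_PBS 1, 2 or 4 or Het_B12 2, 4 or 5, and Slc39a10 (-0.47 ± 0.13) without WT_PBS 1, 2 or 4 or Het_B12 1, 3 or 5. Slc9a3r2 (0.53 ± 0.17) lost it in 9 fits, those without WT_PBS 1, 2, 3 or 5, Het_PBS 4, or Het_B12 2, 3, 4 or 5 (0.47 to 0.60). Without the pair that shares a code number the calls of Abcg1 (0.83), Cav2 (-0.70), Slc16a1 (-0.55) and Slc39a10 (-0.44) also ended, and with the length offset that of Abca2 (0.45).

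**Figure D3:**
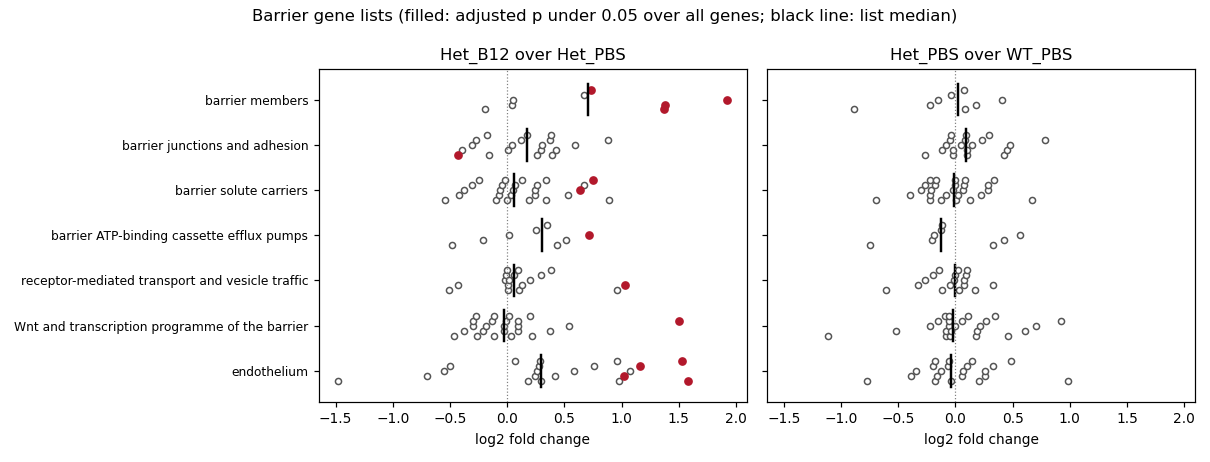
Log2 fold change (horizontal axis) of each tested gene of the barrier genes, the 5 further barrier lists and the endothelial list, for Het_B12 over Het_PBS and Het_PBS over WT_PBS. Filled points passed an adjusted p under 0.05 over all genes, and black lines are list medians; on the right no point is filled, and on the left the median of the 8 barrier genes, 0.70, is printed beside those of the other lists, which run from -0.03 to 0.30, as a description only, since this comparison lay behind the choice of the 8 genes.

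Markers of the cells around the barrier moved with the groups as well. Of 21 tested endothelial markers that are not among the 10 genes, 19% were called in Het_B12 over Het_PBS, against 7.26% of all genes. The list's median log2 difference was 0.29. Of its markers 4 rose and 0 fell. They were the vascular endothelial growth factor receptor genes Flt1 (1.53 ± 0.19 SE, edgeR adjusted p = 3.79e-06) and Kdr (1.02 ± 0.31, 0.0371), the phosphatase gene Ptprb (1.58 ± 0.25, 8.89e-05) and the adhesion receptor gene Adgrf5 (1.16 ± 0.30, 0.0112). Flt1 and Ptprb kept their calls in every fit without 1 library. Adgrf5 lost its call without Het_B12 1 (1.01), and Kdr in 8 fits, those without Het_PBS 2, 3, 4 or 5 or Het_B12 1, 2, 3 or 4 (0.80 to 1.09). Both calls also ended without the pair that shares a code number (Adgrf5 1.06, Kdr 0.86) and without Het_PBS 1 and 3 (Adgrf5 0.93, Kdr 0.94), and that of Kdr with the length offset (0.93). Egfl7 (0.28 ± 0.20), Cd34 (-0.56 ± 0.20) and Vwa1 (0.24 ± 0.20) did not pass, though Cd34 did without WT_PBS 3 (-0.57) or Het_PBS 1 (-0.67). Ly6c1 (0.76 ± 0.27) did not pass over Het_PBS either. Ly6c1 did pass without Het_PBS 5 (1.02), by limma-voom (0.89), without the pair that shares a code number (0.99) and with the length offset (1.04). Between Het_PBS and WT_PBS 0 endothelial markers passed. Over WT_PBS, 23.8% of them passed in Het_B12, against 7.33% of all genes. Between Het_B12 and WT_PBS 5 were higher and 0 lower: Flt1 (1.86 ± 0.20), Ptprb (1.52 ± 0.25), Kdr (1.23 ± 0.32), Ly6c1 (0.91 ± 0.27) and Podxl (1.24 ± 0.38). Of these, Kdr lost its call without Het_B12 1 (1.07), Ly6c1 without WT_PBS 1, 4 or 5 or Het_B12 1, 2 or 5 (0.77 to 0.94), and Podxl without WT_PBS 1, 2, 4 or 5 or Het_B12 1 or 2 (0.89 to 1.25), by limma-voom (1.19), with the replicate block (1.17) and without the pair that shares a code number (0.89). Emcn, the endothelial surface protein endomucin, named here after its values were seen, lay the other way: the 5 libraries of Het_B12 averaged 1.51 ± 0.809 CPM (SD), those of Het_PBS 4.40 ± 2.13 CPM and those of WT_PBS 4.93 ± 2.39 CPM, with log2 differences of -1.48 ± 0.55 over Het_PBS and -1.66 ± 0.55 over WT_PBS (SE) that did not pass, though the second did without WT_PBS 4 (-1.94). The summed level of the 27 endothelial markers was 394.1 to 517.8 CPM in Het_B12, 285.2 to 324.7 CPM in Het_PBS and 280.2 to 335.1 CPM in WT_PBS, so the Het_B12 libraries lay apart from both saline groups.

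As a share of that endothelial sum, Slco1a4 stood at 7.92% ± 1.88 in Het_B12, 4.42% ± 1.43 in Het_PBS and 4.97% ± 1.48 in WT_PBS (SD, n = 5). Cldn5 stood at 2.91% ± 0.514, 1.61% ± 0.550 and 1.61% ± 0.823 in the same groups, and Slc2a1 at 7.39% ± 1.45, 6.51% ± 1.71 and 5.68% ± 1.31. Abcb1a averaged 4.49% ± 0.474, 4.16% ± 1.44 and 4.37% ± 2.30, and the share of Pecam1 was 2.30% ± 0.495, 0.899% ± 0.900 and 1.75% ± 1.59. Cdh5 stood at 0.829% ± 0.362, 0.661% ± 0.558 and 0.449% ± 0.453. Tjp1, at 5.68% ± 1.37, 8.03% ± 1.73 and 9.34% ± 2.29, and Abcg2, at 3.44% ± 0.788, 5.76% ± 1.25 and 5.29% ± 2.56, averaged a smaller share in Het_B12, as did Mfsd2a, at 2.64% ± 0.798, 3.79% ± 1.93 and 2.88% ± 1.22, and Ocln, at 0.501% ± 0.2502, 0.593% ± 0.467 and 0.780% ± 0.411. The ranges of Het_B12 and Het_PBS overlapped for each of the 10 genes. The sum that divides these shares averaged 452.0 CPM in Het_B12, 309.1 CPM in Het_PBS and 310.1 CPM in WT_PBS. Within it Flt1 averaged 71.5 CPM in Het_B12 and 25.1 CPM in Het_PBS, and Ptprb 34.8 and 11.7 CPM. A gene with like CPM in Het_B12 and Het_PBS, such as Tjp1 or Mfsd2a, therefore takes a smaller share in Het_B12. The shares were not tested.

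Markers of other cell types were counted in the same libraries, as descriptions. Over Het_PBS, 50% of tested astrocyte markers were called, 37.5% of microglia, 35.7% of meningeal, 71.4% of erythroid, 75% of leukocyte and 23.1% of oligodendrocyte markers. The shares were 12.5% for pericytes, 14.3% for the arterial, venous or fenestrated list and 6.25% for neurons, each of them 1 gene. Of all genes tested 7.26% were called, 3.47% higher and 3.79% lower. Pericyte and smooth muscle markers (18 genes, 8 tested) summed to 316.0 to 381.6 CPM in Het_B12, 233.3 to 292.5 CPM in Het_PBS and 254.4 to 327.8 CPM in WT_PBS, with 1 called higher and 0 lower over Het_PBS. The gene called, Zic1, is also a cerebellar neuron gene, and it lost its call without Het_PBS 2 or Het_B12 2 (0.44 each). Zic1 made up most of that sum, averaging 190.2 of 338.5 CPM in Het_B12, 134.8 of 263.9 CPM in Het_PBS and 159.8 of 287.1 CPM in WT_PBS. Over Het_PBS, Rgs5 (0.37 ± 0.16), Vtn (0.04 ± 0.18) and Myl9 (-0.64 ± 0.33) did not pass. Of 20 astrocyte markers 10 were lower and 0 higher, and they summed to 5792 to 6794 CPM in Het_B12, 8525 to 9711 CPM in Het_PBS and 7000 to 9547 CPM in WT_PBS. Of 16 microglia markers 6 were lower, with sums of 427.1 to 535.1, 660.7 to 926.7 and 516.0 to 872.0 CPM in the same order, and of 14 tested meningeal fibroblast markers 5 were lower, with sums of 1671 to 2367, 2593 to 3526 and 1945 to 4493 CPM. Most of the meningeal sum was 1 gene, Ptgds, which averaged 1818 of 1985 CPM in Het_B12, 2904 of 3171 CPM in Het_PBS and 2777 of 3028 CPM in WT_PBS. Of 13 tested choroid plexus markers, an epithelium that shares Slc2a1 and Tjp1, 0 passed. Erythroid genes, mostly haemoglobins, summed to 608.0 to 1089 CPM in Het_B12, 860.8 to 5141 CPM in Het_PBS and 621.7 to 1407 CPM in WT_PBS, with Het_PBS 3 and 1 highest, and 5 of 7 tested were lower in Het_B12 than in Het_PBS; without Het_PBS 1 and 3 the calls of Hba-a1 (-0.38), Hba-a2 (-0.41) and Alas2 (-0.65) ended. Of 12 leukocyte markers 4 were tested and 3 were lower; they summed to 12.7 to 17.7 CPM in Het_B12, 31.8 to 113.6 CPM in Het_PBS and 12.3 to 44.8 CPM in WT_PBS, with the B cell markers Cd79a and Ms4a1 at 0 in every library. Of 7 tested markers of arterial, venous or fenestrated vessels 1 was lower, Plpp3, which astrocytes also express. The 14 genes of that list summed to 485.1 to 562.1 CPM in Het_B12, 560.8 to 669.6 CPM in Het_PBS and 591.1 to 650.9 CPM in WT_PBS. Plpp3 made up most of that sum, averaging 296.4 of 524.6 CPM in Het_B12, 412.0 of 609.0 CPM in Het_PBS and 421.4 of 623.0 CPM in WT_PBS. Of the 7 tested genes 5 lay above 0 over Het_PBS, and the median log2 difference was 0.32. Of 13 oligodendrocyte markers 3 were lower. Neuron markers (1 of 16 higher), at 11570 to 12700, 11170 to 13100 and 11580 to 13510 CPM, overlapped in all 3 groups. Without the pair that shares a code number, the calls over Het_PBS of the astrocyte genes Aldoc (-0.41), Slc1a3 (-0.37), Fgfr3 (-0.45) and Mlc1 (-0.52) ended. So did those of Fcrls (-0.61, microglia), Col1a2 (-0.85) and Slc13a4 (-0.92, both meningeal). Mal (-0.42), Ermn (-0.51, both oligodendrocyte), Lyz2 (-1.02, leukocyte) and Rbfox3 (0.31, neuron) lost theirs as well. WT_PBS 3 stood apart from the other wild types, with the lowest WT_PBS sums of astrocyte (7000 CPM, the others at least 8889), microglia (516.0, at least 737.2), meningeal (1945, at least 2792) and leukocyte markers (12.3, at least 34.7), and was the highest of them for Cldn5; alternative fits left it out, alone and together with Het_PBS 5. The part of these shifts in the barrier gene differences was not tested.

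**Figure D4:**
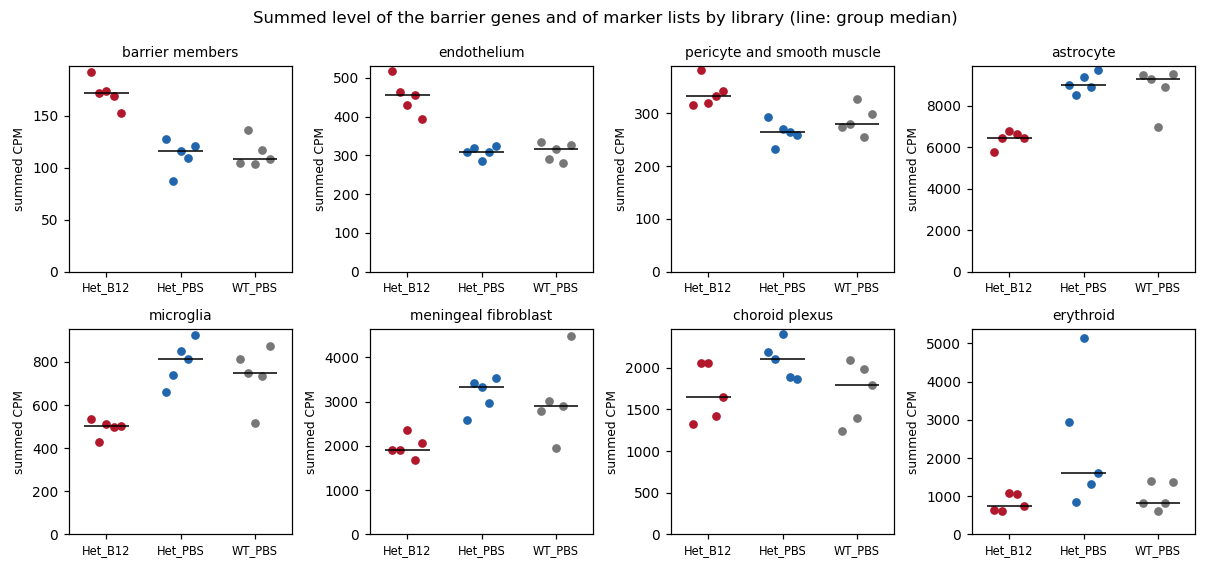
Summed CPM (linear axes from 0) of the 10 barrier genes and of 7 marker lists in each library of Het_B12, Het_PBS and WT_PBS; lines are group medians. The barrier genes summed to 152.4 to 192.3 CPM in Het_B12, 87.6 to 127.7 CPM in Het_PBS and 104.0 to 135.9 CPM in WT_PBS. The sums of barrier genes and of endothelial markers are higher in all Het_B12 libraries, and that of astrocyte markers is lower. The barrier sum is a description only, since the Het_B12 libraries lay behind the choice of the genes. Singly, Ocln, Tjp1, Mfsd2a and Abcg2 overlapped between the groups. Zic1 makes up most of the pericyte sum and Ptgds most of the meningeal sum.

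Transcript length and library were also set beside the values. Over Het_PBS, Het_B12 libraries favoured long transcripts: the median log2 difference was -0.15 in the class of tested genes with the shortest transcripts, of 5 classes, to which Cldn5 (1416 bases) belongs, and 0.12 in the class with the longest, to which Tjp1 (7049) and Abcg2 (5717) belong. Slc2a1, Slco1a4 and Pecam1 fall in the middle class, with a median of 0.04. Gm42418, a gene that overlaps ribosomal RNA sequence, took 3.31% to 6.28% of the counts in Het_B12, 6.47% to 10.3% in Het_PBS and 10.6% to 14.9% in WT_PBS, so the 3 groups did not overlap. Scaled without Gm42418 and mitochondrial genes, 4 barrier genes stood past the threshold over Het_PBS and 3 over WT_PBS, as many as with them; its part beyond scaling was not tested. With an offset for length the same number of barrier genes, 4, stood past the threshold over Het_PBS, and 3 did over WT_PBS. Within groups no library was uniformly high or low: Het_B12 1 was the highest of its group for 5 of the 10 genes and Het_B12 5 the lowest for 5, Het_PBS 2 was the lowest of its group for 5, and WT_PBS 3 the lowest for 4 but the highest for Cldn5.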

How the data were processed

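Counts were deposited by the authors as a single table of whole numbers, 1 row per gene, for the 15 libraries. The kit was QuantSeq 3′, per the labels; STAR, HTSeq and edgeR and the build mm10 are named per the submitters' processing notes. The sources used here give no versions, annotation, strand setting or filters. Unstranded counting could add antisense reads, and reads of near-identical genes can be lost.

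Groups and replicate numbers came from the sample titles. Of 30386 identifiers 99.87% matched GENCODE M21 (GRCm38), which gave coordinates. In R 4.3.3, filterByExpr in edgeR 4.0.16 kept 11718 genes; counts were scaled by TMM and fitted with a quasi-likelihood model, 1 mean per group over all 15 libraries (12 residual degrees of freedom, biological coefficient of variation 0.181). A gene was called where its p, adjusted by Benjamini and Hochberg over all genes, was under 0.05. The script was checked on simulated data. Floors (3 reads) and counting intervals (95%) cover counting error only.

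Members and lists were chosen with earlier results of these data known. Genes named are the 10 members, the 4 most abundant tested genes of each list and listed genes that passed in a comparison; some listed markers of other cell types are given by counts alone. Alternatives were DESeq2 1.42.0, limma-voom (limma 3.58.1), other scalings, filters and samples, and, chosen after seeing the data, an offset for transcript length. Same-numbered libraries did not deviate together (correlations -0.0933 to 0.106 over 15 pairs), so numbers were not treated as pairs.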

Additional observations from a re-analysis of the deposited data

Results flagged for a closer look

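Among 30 sets of 5 libraries (10 genes in 3 groups), 2 held a library whose gap to its nearest neighbour exceeded 0.71 of the group's range; chance gives about 1 in 20 such sets. Pecam1 in Het_B12 5 stood at 5.93 CPM, below the other Het_B12 libraries (10.8 to 12.2 CPM). Mfsd2a in WT_PBS 1 stood at 2.46 CPM, below the other WT_PBS libraries (8.76 to 11.3 CPM).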

How the results depend on the processing

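Over Het_PBS, 851 genes and 4 barrier genes were called in Het_B12. This became 437 genes and 1 barrier gene (Slco1a4) without the libraries that share a code number, and 509 genes without Het_PBS 1 and 3. A minimum mean count of 50, which drops the low barrier genes from the fit, left 2 barrier genes. Without 1 library the counts were 549 to 1050 genes and 2 to 4 barrier genes. Between Het_PBS and WT_PBS the call of 0 genes became 40 with no filter on low counts, 2 without the libraries that share a code number, 1 without WT_PBS 3 and Het_PBS 5, and 0 to 14 without 1 library; no barrier gene was called in any of these fits. Between Het_B12 and WT_PBS, 859 genes became 1390 without WT_PBS 3 and Het_PBS 5 and 449 to 1268 without 1 library, with 3 to 4 barrier genes. With the replicate number as a block 830, 0 and 800 genes were called in these comparisons, and 4, 0 and 3 barrier genes. The sign changed for small differences. For Het_B12 over Het_PBS, Tjp1 was at -0.061 with the length offset and -0.080 to 0.15 without 1 library; Mfsd2a was at -0.22 without Het_PBS 1 and 3 and -0.16 to 0.30 without 1 library. For Het_PBS over WT_PBS, Slc2a1 was at -0.0066 without Het_PBS 1 and 3, Abcb1a at 0.0066 by limma-voom and Abcg2 at -0.12 without WT_PBS 3 and Het_PBS 5; without 1 library Cldn5 ran from -0.16 to 0.42, Abcb1a from -0.20 to 0.27 and Abcg2 from -0.052 to 0.30. For Het_B12 over WT_PBS, Abcg2 ran from -0.25 to 0.11 without 1 library. Of 632 alternative values of the 8 genes, 593 kept sign and call, 21 changed sign, 16 lost a call and 2 gained one. The cause was not tested. Depth limits Ocln and Cdh5 most, with 0 to 17 reads a library.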
